A study of Mus musculus with 2 samples.

Results

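The genes described here encode the proteins of the cytosolic ribosome, the particle that translates messenger RNA outside the mitochondria. They were chosen by symbol: all rows of the count table that begin with Rpl or Rps and a digit, together with Rpsa, Rplp0, Rplp1 and Rplp2, without pseudogene rows and the Rps6k kinases, and with at least 20 unique molecular identifiers (UMIs, counts of distinct captured RNA molecules) in total. Of 22032 rows, 86 symbols matched and 84 were members. Rpl10l had 0 UMIs and Rpl3l had 12 UMIs, and both were left out. Of the 84 members, 77 encode proteins of the common ribosome (46 of the large and 31 of the small subunit). The other 7 are the paralogues Rpl22l1, Rps27l, Rps27rt, Rpl36al, Rpl39l and Rpl7l1, and Rps19bp1, which encodes a protein that binds Rps19 and is no ribosomal protein.

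A ribosome holds a single copy of nearly all of its proteins, so that their genes are usually expressed in fixed proportions and at very high levels. In vertebrates their mRNAs start with a tract of C and T bases through which the mTOR pathway sets their translation. Several members have a paralogue that can take the same place in the particle. In mice Rpl22 is needed for the development of alpha-beta T cells, and Rpl22l1 is its paralogue.

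The study profiled double-negative 1 (DN1) cells, the earliest thymocyte fraction, sorted from the embryonic thymus of the 5x polychromILC mouse strain, with 1 library of the group E15.5_DN1 and 1 of the group E19.5_DN1. Both groups share strain, tissue and sort, and the labels do not say which alleles the strain carries, nor how many embryos were pooled. The labels describe a lysis step that gives nuclei, so the droplets may have received nuclei or whole cells. The table held 6057 barcodes in 2 sets, 3875 with suffix 2 and 2182 with suffix 1, and 25 barcode sequences occurred with both suffixes. Since neither suffix is named for a stage, no stage comparison was made, all barcodes were 1 pooled sample, and suffixes are given as barcode sets. There were no replicates: differences have no test, and every interval is an exact 95% interval that covers counting error only.

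After filters 5416 barcodes remained, 3278 of suffix 2 and 2138 of suffix 1, with 99036443 UMIs (713 to 113167 per barcode). Barcodes were gated on raw UMIs, at least 1 of both genes, and a barcode in more than 1 gate (991 barcodes) was in none, as were 795 that met no gate. The NK/ILC1 gate (Xcl1 and Nkg7, a chemokine and a cytotoxic granule gene of natural killer cells and type 1 innate lymphoid cells) held 1140 barcodes. The ILC2 gate (Icos and Rora, of type 2 innate lymphoid cells) held 1380, the DN2/DN3 gate (Cd3g and Myb, of cells entering the T lineage) 320, and the progenitor gate (Spi1 and Bcl11a, of uncommitted progenitors) 790. Of the markers listed for each gate, 9 of 9, 7 of 8, 9 of 10 and 9 of 9 were highest in their own gate, gate genes included. Cd3g was also present in the NK/ILC1 gate (1525 CPM, counts per 1e6 UMIs) and the ILC2 gate (794 CPM), against 1253 CPM in the DN2/DN3 gate and 2.62 CPM in the progenitor gate. Cpa3, a gene of mast cells and basophils, reached 299 CPM in the DN2/DN3 gate and 229 CPM in the progenitor gate. Hbb-bt, a globin gene of red blood cells, had 143 CPM in the NK/ILC1 gate, 3.83 CPM in the ILC2 gate, 302 CPM in the DN2/DN3 gate and 633 CPM in the progenitor gate. Summed over 5 listed erythroid genes, the level was 151 CPM, 127 CPM, 306 CPM and 636 CPM in this order of gates. The 4 apart from Hbb-bt were highest in the ILC2 gate, with Hbb-bs at 104 CPM there and 2.18 CPM in the progenitor gate. The part of erythroid RNA in the differences between gates was not tested. Median depth per barcode was 10822 UMIs in the NK/ILC1 gate, 11846.5 UMIs in the ILC2 gate, 19245.5 UMIs in the DN2/DN3 gate and 30653.5 UMIs in the progenitor gate.

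To show where runs of C and T lie around the start of members described below, 30 bases around the annotated start are printed from the RefSeq promoter table (GRCm38.p6), the 15 before the start and the 15 from it on, 5′ to 3′ on the gene's strand. Capitals mark the longest unbroken run of C and T that touches the 10 bases on either side of the start. Where runs tied in length, the first was marked. Rplp1 had no entry.
Rpl22l1: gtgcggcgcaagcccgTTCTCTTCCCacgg
Rpl22: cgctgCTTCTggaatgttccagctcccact
Rps27l: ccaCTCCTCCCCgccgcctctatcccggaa
Rps27: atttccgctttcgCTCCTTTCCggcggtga
Rps6: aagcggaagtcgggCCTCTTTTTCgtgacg
Rps2: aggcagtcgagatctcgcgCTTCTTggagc
Rpl36a: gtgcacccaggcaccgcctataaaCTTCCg
Rpsa: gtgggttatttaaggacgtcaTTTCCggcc
The windows lie at chr3:28805493-28805522 (Rpl22l1, plus strand), chr4:152324421-152324450 (Rpl22, plus), chr9:66946071-66946100 (Rps27l, plus), chr3:90213634-90213663 (Rps27, minus), chr4:86857353-86857382 (Rps6, minus), chr17:24720048-24720077 (Rps2, plus), chrX:134585639-134585668 (Rpl36a, plus) and chr9:120127751-120127780 (Rpsa, plus). The run was 10 bases long in Rpl22l1 and Rps6 and 9 in Rps27l and Rps27, against 6 in Rps2 and 5 in Rpl22, Rpl36a and Rpsa. In Rps27 and Rps6 it spans the annotated start, and in Rpl22l1, Rps2, Rpl36a and Rpsa it lies after it. In Rps27l and Rpl22 the marked run ends before the start, so that by this annotation those letters are not part of the mRNA. In Rpl22 another run of 5 bases, in small letters, lies after the start and touches the same bases around it. The start used for Rpl22 lies before the first base of the annotated gene (152325742). That for Rps2 lies inside the gene, which begins at 24718116. The starts for Rpl22l1 and Rpsa also lie inside their genes, which begin at 28805436 and 120127689. So do those for Rps6 and Rps27, whose genes begin on the minus strand at 86857412 and 90213651. A run of at least 6 C or T bases, on the gene's strand, was found at 39 of the 64 members with an entry (60.9%), and at 3273 of 9770 other genes with at least 20 UMIs (33.5%). It reached into the bases from the start on in 27 of the 64 members (42.2%) and in 1702 of the 9770 other genes (17.4%). A match describes these letters and says nothing of regulation.

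Ribosomal protein genes gave 30679576 UMIs, or 31.0% of all UMIs in kept barcodes. Among the 10 most abundant members were Rpl13 with 8255 CPM, Rps24 with 7477 CPM, Rpsa with 7430 CPM and Rpl32 with 7045 CPM. Rps20, Rplp0, Rps27a, Rps2 and Rpl23 also belonged to them, between 6914 CPM and 5941 CPM. Rps27a encodes its protein fused to ubiquitin, Rplp0 is the base of the stalk that recruits elongation factors, and Rpsa is a small subunit protein also known as the laminin receptor. These 10 members took 22.4% of all member UMIs, and 22 of the 30 rows with the most UMIs in the table were members. The median member had 3655 CPM. Levels were counted at the 3′ end of transcripts and are not divided by transcript length.

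The share of UMIs that came from ribosomal protein genes was highest in the progenitor gate. It was 28.62% (28.60 to 28.65) in the NK/ILC1 gate, 31.36% (31.33 to 31.38) in the ILC2 gate and 29.63% (29.60 to 29.66) in the DN2/DN3 gate, against 32.72% (32.70 to 32.74) in the progenitor gate. Relative to the progenitor gate the differences were -4.10, -1.36 and -3.09 percentage points. Single barcodes overlapped widely. Their lowest, median and highest shares were 4.71%, 28.5% and 39.3% in the NK/ILC1 gate, 17.4%, 32.3% and 46.4% in the ILC2 gate, 9.52%, 29.7% and 40.1% in the DN2/DN3 gate and 22.8%, 33.3% and 41.1% in the progenitor gate. The subunits kept nearly the same proportion: small subunit UMIs per large subunit UMI were 0.871 in the NK/ILC1 gate, 0.867 in the ILC2 gate, 0.886 in the DN2/DN3 gate and 0.876 in the progenitor gate.

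**Figure D1:**
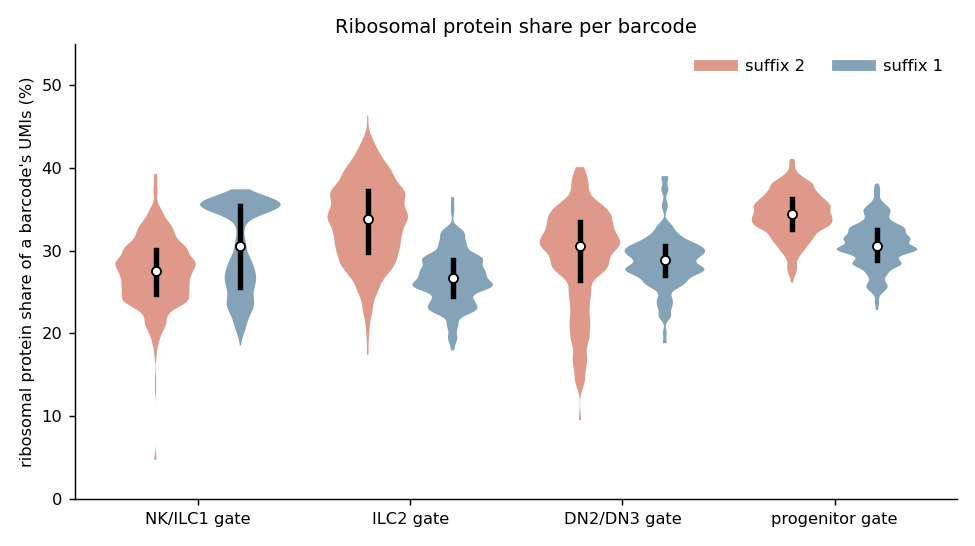
Ribosomal protein share of each barcode's UMIs (vertical axis, percent) in the 4 gates, suffix 2 left of suffix 1. The shapes show the spread of barcodes, the white points the medians and the black bars the quartiles. The median is 27.5% in suffix 2 and 30.6% in suffix 1 in the NK/ILC1 gate, and 33.8% and 26.7% in the ILC2 gate.

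The order of the gates depended on the barcode suffix. Within suffix 2 the share was 26.9% in the NK/ILC1 gate, 32.7% in the ILC2 gate, 30.3% in the DN2/DN3 gate and 33.7% in the progenitor gate. Within suffix 1 it was 29.8% in the NK/ILC1 gate, 26.6% in the ILC2 gate, 28.7% in the DN2/DN3 gate and 30.4% in the progenitor gate. The progenitor gate was thus highest in both suffixes by summed UMIs. By the median barcode of suffix 1 the NK/ILC1 gate was level with it (difference 0.0046 percentage points). The NK/ILC1 gate was below the ILC2 gate within suffix 2 (difference -5.81 percentage points) and above it by 3.19 percentage points within suffix 1. Without barcodes that held Krt8, a keratin gene of epithelial cells, these differences were -5.81 and 2.41 percentage points. The NK/ILC1 gate was below the progenitor gate within suffix 1 (difference -0.54 percentage points), and without Krt8 barcodes the difference was -1.33. Across all kept barcodes the share was 32.2% in suffix 2 and 29.2% in suffix 1. Suffix 2 was higher by 6.06 percentage points in the ILC2 gate, by 3.38 in the progenitor gate and by 1.60 in the DN2/DN3 gate, and lower in the NK/ILC1 gate (difference -2.94).

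Barcodes with a Krt8 UMI in the NK/ILC1 gate of suffix 1 lay in a narrow band at a high share. Between 34% and 37%, limits chosen after the values were seen, lay 74 of the 81 barcodes with a Krt8 UMI (91.4%, 83.0 to 96.5) and 219 of the 601 without one (36.4%, 32.6 to 40.4). In the same gate of suffix 2, 15 of 458 barcodes (3.28%, 1.84 to 5.34) lay there, and none held Krt8. Because the limits were set on these same barcodes, the percentages only describe them. The intervals count barcodes of a pooled sample, which are not replicates, and are no test of the contrast. The band was not particular to the NK/ILC1 gate. Within suffix 2 it held 21.5% of the ILC2 gate, 15.1% of the DN2/DN3 gate and 37.7% of the progenitor gate, and within suffix 1 it held 1.59%, 1.74% and 11.1% of them. Barcodes with Krt8 made up 11.9% of the NK/ILC1 gate in suffix 1. Over all kept barcodes of suffix 1, the 196 with Krt8 had a median share of 35.5%. In the ILC2 gate of suffix 1 the 6 barcodes with Krt8 lay below the band, between 22.5% and 27.0%. The 2 in the DN2/DN3 gate of suffix 1 also lay below it, at 30.2% and 31.4%. Summed over 9 listed genes of thymic epithelium, the NK/ILC1 gate had 69.4 CPM, the ILC2 gate 63.9 CPM, the DN2/DN3 gate 53.3 CPM and the progenitor gate 42.1 CPM. Within suffix 1 the order was another, with 76.3 CPM in the NK/ILC1 gate, 145 CPM in the ILC2 gate, 55.2 CPM in the DN2/DN3 gate and 68.1 CPM in the progenitor gate. In the NK/ILC1 gate Epcam had 24.6 CPM, Ccl25 15.03 CPM, Krt18 14.5 CPM, Krt8 7.62 CPM, Prss16 5.72 CPM, Psmb11 1.69 CPM and Krt5 and Krt14 0.147 CPM each, while Foxn1, which defines thymic epithelium, was at 0. Of these 9 genes 4 (Krt8, Krt18, Psmb11 and Prss16) were highest in the NK/ILC1 gate. Another 4 (Krt5, Krt14, Ccl25 and Foxn1) were highest in the progenitor gate, and Epcam was highest in the DN2/DN3 gate. For Krt14 and Foxn1 this rank rests on very few UMIs, with 0.159 CPM and 0.0795 CPM in the progenitor gate. The part of epithelial RNA in the high share was not tested.

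**Figure D2:**
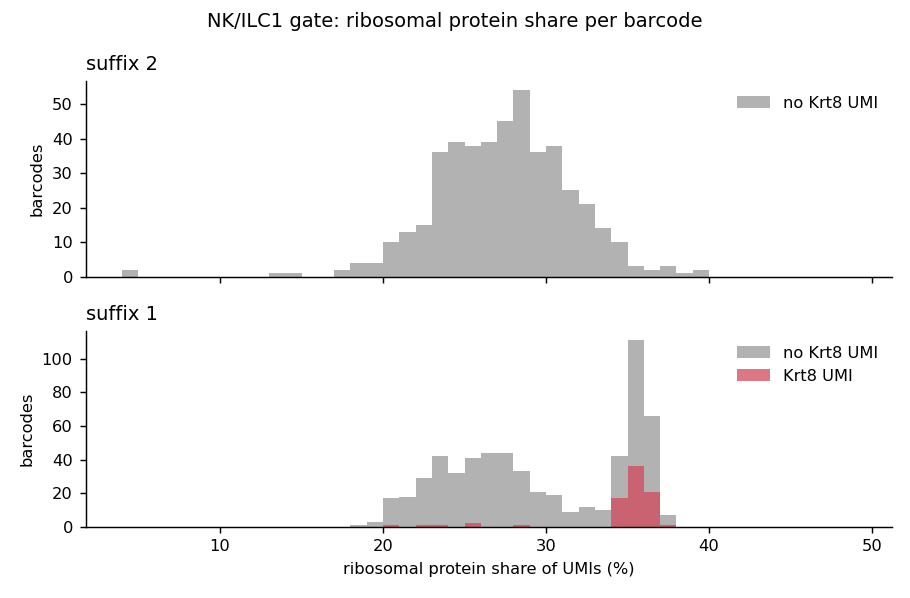
Number of NK/ILC1 gate barcodes (vertical axis) by ribosomal protein share of UMIs (horizontal axis, percent, bins of 1 point), suffix 2 above suffix 1. Barcodes with a Krt8 UMI (red) are drawn over those without (grey). In suffix 1, 91.4% of the 81 barcodes with Krt8 lie between 34% and 37%, limits chosen after the values were seen.

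Barcodes with an Mki67 or Top2a UMI, genes of dividing cells, had a lower ribosomal protein share in every gate. With either gene the share was 27.7% in the NK/ILC1 gate, 29.3% in the ILC2 gate, 29.4% in the DN2/DN3 gate and 32.2% in the progenitor gate. Without both it was 30.5%, 34.9%, 31.7% and 35.8% in these gates. Such barcodes were 58.7% of the NK/ILC1 gate, 51.7% of the ILC2 gate, 72.8% of the DN2/DN3 gate and 80.6% of the progenitor gate, and 54.9% of suffix 2 against 74.5% of suffix 1. They were also deeper, with a median of 16168 UMIs against 10086 UMIs in the ILC2 gate. The progenitor gate had the highest share among barcodes with either gene and among those without both. Within a gate and suffix, the share and log10 UMIs had a Pearson r between -0.39 (progenitor gate, suffix 2, 547 barcodes) and 0.47 (DN2/DN3 gate, suffix 2, 205 barcodes). The part of depth in the share was not tested.

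Few single members differed between gates by a fold that many other rows passed. Past 1.5-fold in CPM, the fold used as a call throughout, were 4 of 84 members in the ILC2 gate over the progenitor gate, against 51.5% of the 12497 rows compared. Rps27l and Rpl22l1 were among 3 that were lower and Rpl39l was higher, with the same 4 past it within suffix 2 (all rows, 52.7%) and 2, Rps27l and Rpl22l1, within suffix 1 (all rows, 46.6%). For the NK/ILC1 gate over the progenitor gate 3 of 84 members were past it, against 51.1% of rows, with Rpl22l1 and Rpl36a lower and Rpl39l higher. In the DN2/DN3 gate over the progenitor gate 0 of 84 were, against 27.9% of rows. Between the NK/ILC1 and ILC2 gates 2 of 84 were, against 33.6% of rows, with Rps27l and Rpl39l higher. Within suffix 2 these were 3 of 84 (Rps19 and Rplp1 lower, Rpl39l higher; all rows, 34.1%), and within suffix 1 they were 0 of 84 (all rows, 36.1%). Low rows pass a fold more easily, and among rows of at least 50 CPM 37.2%, 35.6%, 8.15% and 16.9% passed in these comparisons. Most members lie far above 50 CPM, and no rows matched to them on level were compared. The first 3 comparisons share the progenitor gate. Over the 4 gates, the highest fraction of member UMIs exceeded the lowest by a median log2 ratio of 0.23 in the 83 members of at least 50 CPM, and by more than 1.5-fold in 3 of them. Rpl23a (0.274% to 0.284% of member UMIs) and Rpl23 (1.89% to 1.96%) varied least. The same spread over rows that are no members was not computed, so that these values have no measure beside them.

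**Figure D3:**
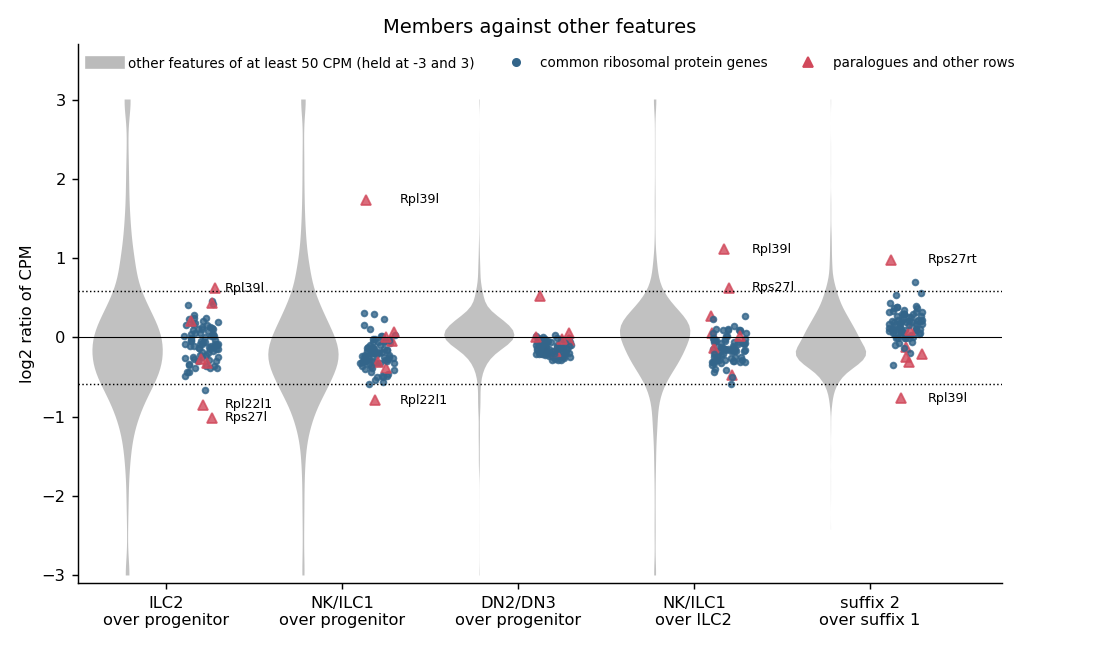
Log2 ratio of CPM (vertical axis) for 5 comparisons. Grey shapes are other rows of at least 50 CPM, with values beyond -3 and 3 drawn there, blue points the 77 genes of the common ribosome and red triangles the other 7 members. Dotted lines mark 1.5-fold, with 4, 3, 0, 2 and 3 members past it from left to right, and names are given for the triangles past it.

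The median member had a log2 ratio of -0.08 in the ILC2 gate over the progenitor gate (all rows, -0.11), -0.21 in the NK/ILC1 gate (all rows, -0.23) and -0.14 in the DN2/DN3 gate (all rows, 0.02). Lower in both suffixes were 48, 52 and 67 of the 84 members in these comparisons, and 13, 7 and 3 were higher in both. For the NK/ILC1 gate over the ILC2 gate the median was -0.14 (all rows, -0.09), with -0.27 in suffix 2 and 0.15 in suffix 1. There 61 of 84 members did not have the same sign in both suffixes. For all these counts by sign, the share over all rows was not computed, so that they have no measure beside them. Within suffix 2 alone the NK/ILC1 gate had 12 of 84 members past 1.5-fold from the progenitor gate (all rows, 53.7%), 11 of them lower. Among these were Rpl36a, Rpl22l1, Rps6, Rps19, Rps12, Rps27l, Rpl14, Rpl26, Rps2 and Rpl10a. Within suffix 1, 2 of 84 were past it (all rows, 51.7%), Rpl22l1 lower and Rpl39l higher. With counts scaled to UMIs outside ribosomal protein and mitochondrial genes, 7 members were past 1.5-fold in the pooled comparison, 1 higher and 6 lower. The share of all rows past it at this scaling was not computed. All rows moved down too, with a median log2 ratio of -0.32, against -0.30 over the members.

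The 2 large subunit paralogues of the Rpl22 pair differed in how they varied. Rpl22l1 had 825 CPM in the NK/ILC1 gate (677 in suffix 2 and 928 in suffix 1), 794 CPM in the ILC2 gate (759 and 918), 1263 CPM in the DN2/DN3 gate (1139 and 1428) and 1431 CPM in the progenitor gate (1417 and 1461). The values of the NK/ILC1 and ILC2 gates lay below those of the other gates in both suffixes. The log2 ratio over the progenitor gate was -0.79 (-0.82 to -0.76) for the NK/ILC1 gate and -0.85 (-0.88 to -0.82) for the ILC2 gate. Rpl22 itself had 2013 CPM in the NK/ILC1 gate, 2441 CPM in the ILC2 gate, 2034 CPM in the DN2/DN3 gate and 2279 CPM in the progenitor gate. Rpl22l1 UMIs per Rpl22 UMI were thus 0.410 (0.401 to 0.419) in the NK/ILC1 gate, 0.325 (0.319 to 0.331) in the ILC2 gate, 0.621 in the DN2/DN3 gate and 0.628 (0.620 to 0.636) in the progenitor gate. Within suffix 2 these ratios were 0.339, 0.291, 0.528 and 0.589. Within suffix 1 the NK/ILC1 gate had 0.459, the ILC2 gate 0.499, the DN2/DN3 gate 0.763 and the progenitor gate 0.735. After each barcode was thinned to 6970 UMIs, which left out 144, 76, 48 and 6 shallower barcodes in the same order of gates, the median barcode held 5, 5, 8 and 10 UMIs of Rpl22l1. When barcodes in more than 1 gate were kept, the log2 ratio of the NK/ILC1 gate was -0.57, under the call.

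The small subunit pair Rps27 and Rps27l differed from the progenitor gate in opposite directions in the ILC2 gate. Rps27l, whose gene is a target of p53, had 512 CPM in the NK/ILC1 gate (440 in suffix 2 and 562 in suffix 1), 332 CPM in the ILC2 gate (299 and 448), 589 CPM in the DN2/DN3 gate (511 and 691) and 668 CPM in the progenitor gate (660.5 and 686). It was lowest in the ILC2 gate in both suffixes. Rps27 had 1946 CPM in the NK/ILC1 gate (2414 in suffix 2 and 1624 in suffix 1), 2641 CPM in the ILC2 gate (2930 and 1618), 1853 CPM in the DN2/DN3 gate (2188 and 1409) and 1921 CPM in the progenitor gate (2137 and 1424). Over the progenitor gate the log2 ratio in the ILC2 gate was -1.01 (-1.05 to -0.97) for Rps27l and 0.46 (0.44 to 0.48) for Rps27, which was under the call. For Rps27 in the NK/ILC1 gate the log2 ratio was 0.02 in the pooled comparison, but 0.18 within suffix 2 and 0.19 within suffix 1. Rps27l UMIs per Rps27 UMI were 0.263 in the NK/ILC1 gate, 0.126 in the ILC2 gate, 0.318 in the DN2/DN3 gate and 0.348 in the progenitor gate. Within suffix 2 these ratios were 0.182, 0.102, 0.234 and 0.309, and within suffix 1 they were 0.346, 0.277, 0.491 and 0.482. The ILC2 gate had the lowest ratio in both suffixes. Over the ILC2 gate, Rps27l in the NK/ILC1 gate was past 1.5-fold in the pooled comparison (log2 ratio 0.63) but not within suffix 2 (0.56) or suffix 1 (0.33), nor when scaled to UMIs outside ribosomal protein and mitochondrial genes (0.55). Rps27rt is a near-identical copy of Rps27, so that its counts are uncertain. It had between 51.7 and 71.6 CPM over the gates.

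**Figure D4:**
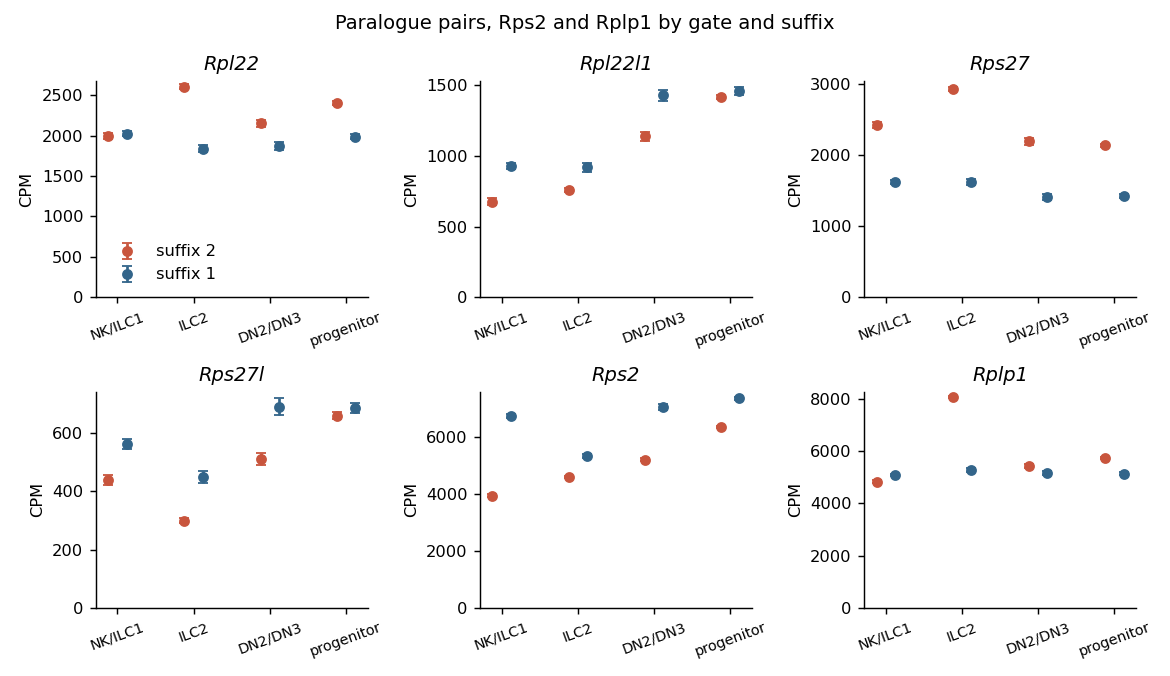
CPM (vertical axes, from 0) of the Rpl22 and Rps27 pairs, Rps2 and Rplp1 in the 4 gates, suffix 2 (red) left of suffix 1 (blue), with exact Poisson 95% intervals. Rpl22l1 is at 677 and 928 CPM in the NK/ILC1 gate and 1417 and 1461 CPM in the progenitor gate, while Rplp1 stands apart in the ILC2 gate of suffix 2 with 8063 CPM.

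Of the small subunit genes, Rps2 was lower in the ILC2 gate in both suffixes, under the call (log2 ratio over the progenitor gate -0.48, with -0.47 in suffix 2 and -0.46 in suffix 1). Rps2 had 5592 CPM in the NK/ILC1 gate, 4763 CPM in the ILC2 gate, 5997 CPM in the DN2/DN3 gate and 6655 CPM in the progenitor gate. Within the NK/ILC1 gate Rps2 stood at 3939 CPM in suffix 2, against 6729 CPM in suffix 1, the widest gap between suffixes for this gene. Rps6, the member that S6 kinases phosphorylate, had 2480 CPM in the NK/ILC1 gate, 2588 CPM in the ILC2 gate, 3031 CPM in the DN2/DN3 gate and 3510 CPM in the progenitor gate. Rps12 had 3923 CPM in the NK/ILC1 gate and 5708 CPM in the progenitor gate (log2 ratio -0.54).

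Rpsa had 8464 CPM in the NK/ILC1 gate, 7030 CPM in the ILC2 gate, 7083 CPM in the DN2/DN3 gate and 7193 CPM in the progenitor gate. The level in the NK/ILC1 gate was 7131 CPM in suffix 2 and 9379 CPM in suffix 1, so the difference rested on suffix 1.

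Of the large subunit, Rpl36a had 1576 CPM in the NK/ILC1 gate (1518 in suffix 2 and 1615 in suffix 1) and 2372 CPM in the progenitor gate (2524 and 2021). The log2 ratio was -0.59 (-0.61 to -0.57), just past the call, with -0.73 in suffix 2 and -0.32 in suffix 1. It was under the call when 2 UMIs of each gate gene were required (-0.57) and when barcodes in more than 1 gate were kept (-0.43). The paralogue Rpl36al had 275 CPM and 262 CPM in these gates. Rpl10, one of the last proteins to join the large subunit, had 3901 CPM in the NK/ILC1 gate (3988 in suffix 2 and 3841 in suffix 1), 3647 CPM in the ILC2 gate (3674 and 3552), 3219 CPM in the DN2/DN3 gate (3168 and 3286) and 3165 CPM in the progenitor gate (3197 and 3091). Its log2 ratio of the NK/ILC1 gate over the progenitor gate was 0.30, with 0.32 in suffix 2 and 0.31 in suffix 1. The values of the innate gates lay above those of the other gates in both suffixes.

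In the DN2/DN3 gate no member was past 1.5-fold from the progenitor gate, and the members farthest from it were close to the rest. Rpl26 had 3449 CPM in the DN2/DN3 gate and 4205 CPM in the progenitor gate (log2 ratio -0.29, with -0.32 in suffix 2 and -0.16 in suffix 1). Rpl36 and Rps19 both had a log2 ratio of -0.28. Rps19 is mutated in Diamond-Blackfan anaemia in humans. At the other end Rpl36al had 274 CPM and 262 CPM in these gates (0.06), and Rpl13a 448 CPM and 439 CPM (0.03). Within suffix 2, Rpl39l was the 1 member past 1.5-fold (all rows, 32.9%), and within suffix 1 there were 0 (all rows, 24%).

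Of the stalk proteins, Rplp1 and Rplp2 ranked the pooled gates in the same order, highest in the ILC2 gate and lowest in the NK/ILC1 gate, whereas Rplp0 was highest in the progenitor gate. Rplp1 had 4981 CPM in the NK/ILC1 gate, 7448 CPM in the ILC2 gate, 5329 CPM in the DN2/DN3 gate and 5568 CPM in the progenitor gate. The level in the ILC2 gate was 8063 CPM in suffix 2, against 5272 CPM in suffix 1, and the log2 ratio over the progenitor gate was 0.49 in suffix 2 and 0.04 in suffix 1. Rplp2, its partner, had 3061 CPM in the NK/ILC1 gate, 3804 CPM in the ILC2 gate, 3256 CPM in the DN2/DN3 gate and 3414 CPM in the progenitor gate. Rplp0 had 6043 CPM in the NK/ILC1 gate, 6733 CPM in the ILC2 gate, 6797 CPM in the DN2/DN3 gate and 6927 CPM in the progenitor gate. Over the ILC2 gate, Rplp1 in the NK/ILC1 gate had a log2 ratio of -0.58, just under the call (-0.62 without Krt8 barcodes, past it), with -0.74 in suffix 2 and -0.05 in suffix 1.

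Rpl39l, a paralogue of Rpl39 known in mice from the testis, was the rarest member. Rpl39l had 14.0 CPM (191 UMIs) in the NK/ILC1 gate, 6.48 CPM (122 UMIs) in the ILC2 gate, 6.04 CPM (45 UMIs) in the DN2/DN3 gate and 4.21 CPM (106 UMIs) in the progenitor gate. Its log2 ratio of the NK/ILC1 gate over the progenitor gate was 1.73 (1.38 to 2.09), with 2.71 in suffix 2 and 0.62 in suffix 1. Rpl39l UMIs per Rpl39 UMI were 0.0044 in the NK/ILC1 gate, 0.0015 in the ILC2 gate, 0.0018 in the DN2/DN3 gate and 0.0011 in the progenitor gate. Within suffix 2 these ratios were 0.0045, 0.0012, 0.0015 and 0.00057, and within suffix 1 they were 0.0044, 0.0035, 0.0024 and 0.0027. The NK/ILC1 gate had the highest ratio in both suffixes, while the order of the other gates differed between them. Rps19bp1 had between 51.4 CPM in the ILC2 gate and 62.3 CPM in the DN2/DN3 gate, near the limit of 50 CPM for named members.

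Between suffixes 3 of 84 members were past 1.5-fold, against 22.6% of 12596 rows and 8.48% of rows of at least 50 CPM. Rps27 and Rps27rt were higher and Rpl39l lower in suffix 2. In the NK/ILC1 gate Rpl39l was not lower, with 87 of 5556915 UMIs in suffix 2 and 104 of 8083773 in suffix 1. It was also not past the call as a mean over barcodes, without thymic epithelium marker barcodes or without cycling barcodes. The level of Rps27 was 2440 CPM in suffix 2, against 1500 CPM in suffix 1. For Rps29 the levels were 4448 CPM in suffix 2, against 3025 CPM in suffix 1. Rpl39 had 4180 CPM in suffix 2 against 2882 CPM in suffix 1. Rps2 was lower in suffix 2, with 5360 CPM against 6839 CPM in suffix 1 (log2 ratio -0.35). Rpl7l1, a paralogue of Rpl7, was at 117 CPM in suffix 2, against 136 CPM in suffix 1. The median member had a log2 ratio of 0.16 (all rows, 0.10). In the NK/ILC1 gate, where 3 of 84 members were past 1.5-fold (all rows, 44.2%), the median was -0.11 (all rows, 0.17). In the ILC2 gate, where 9 of 84 members were (all rows, 33.3%), it was 0.29 (all rows, -0.09). Past 1.5-fold were also 2 of 84 in the DN2/DN3 gate (all rows, 31.3%) and 3 of 84 in the progenitor gate (all rows, 18.2%).

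Members with short coding sequences had the higher ratios of suffix 2 over suffix 1. Of the 9 members of the common ribosome with coding sequences of up to 300 bases in the GENCODE annotation, 8 were higher in suffix 2 over all barcodes (median log2 ratio 0.40). They were Rps27 (0.70), Rps29 (0.56), Rpl39 (0.54), Rps28 (0.44), Rpl37a (0.40), Rpl37 (0.39), Rpl38 (0.38) and Rps21 (0.37). Rpl41, the shortest by this annotation, was the exception over all barcodes (-0.05). Its log2 ratio was -0.26 in the NK/ILC1 gate, 0.10 in the ILC2 gate, 0.06 in the DN2/DN3 gate and 0.11 in the progenitor gate. Of the 24 members over 600 bases, 16 were higher over all barcodes (median 0.04). By gate 5 were higher in the NK/ILC1 gate (median -0.27), 21 in the ILC2 gate (0.17), 11 in the DN2/DN3 gate (-0.01) and 18 in the progenitor gate (0.07). Across the 77 members the log2 ratio and log2 coding length had a Pearson r of -0.64. The r was -0.58 in the NK/ILC1 gate, -0.55 in the ILC2 gate, -0.64 in the DN2/DN3 gate and -0.70 in the progenitor gate. The 8 genes above were higher in suffix 2 in each gate. Over 2604 other genes of at least 50 CPM, Spearman's rho between the same quantities was 0.33, opposite in sign to the rho of -0.63 over the members. By gate the rho over other genes was 0.37 in the NK/ILC1 gate and weaker elsewhere. It was 0.14 in the ILC2 gate, 0.12 in the DN2/DN3 gate and 0.16 in the progenitor gate. These points share barcodes and depth, genes are not independent, and the cause was not tested.

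**Figure D5:**
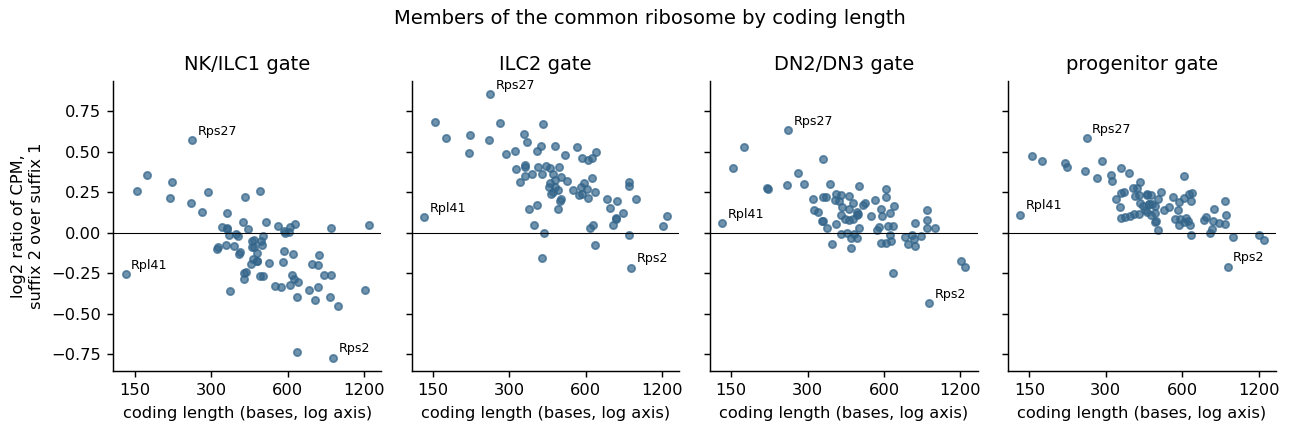
Log2 ratio of CPM, suffix 2 over suffix 1 (vertical axis), against coding length in bases (horizontal axis, log scale) for the 77 members of the common ribosome in each gate. Short members lie higher in all 4 gates, with r between -0.70 in the progenitor gate and -0.55 in the ILC2 gate, and Rpl41 stands apart at the short end.

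Of ribosomal proteins whose symbols the rule leaves out, Fau and Rack1 are described. Fau, which encodes a small subunit protein fused to a ubiquitin-like domain, had 4556 CPM in the NK/ILC1 gate, 4631 CPM in the ILC2 gate, 3449 CPM in the DN2/DN3 gate and 3519 CPM in the progenitor gate. Rack1, a scaffold on the small subunit, had 2872 CPM in the NK/ILC1 gate, 3168 CPM in the ILC2 gate, 3148 CPM in the DN2/DN3 gate and 3475 CPM in the progenitor gate. Neither was past 1.5-fold over the progenitor gate.

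Of the related lists, the factors that assemble ribosomes had the largest shares of lower genes in the innate gates. Of 38 listed assembly factors, 25 were lower past 1.5-fold in the NK/ILC1 gate (median log2 ratio -0.78) and 32 in the ILC2 gate (median -0.90), against 0 in the DN2/DN3 gate (median -0.12), all over the progenitor gate, and 0 were higher in these 3 comparisons. Of all rows, 32.5%, 28.6% and 13.6% were lower. Within suffix 2 the counts were 28, 31 and 0 (all rows, 30.5%, 30.4% and 15.4%), and within suffix 1 they were 27, 27 and 0 (all rows, 35.3%, 24% and 12.9%). Npm1, the abundant nucleolar chaperone, had 1788 CPM in the NK/ILC1 gate, 1967 CPM in the ILC2 gate, 3884 CPM in the DN2/DN3 gate and 4290 CPM in the progenitor gate. Ncl, the nucleolar RNA-binding protein nucleolin, had 692 CPM in the NK/ILC1 gate, 817 CPM in the ILC2 gate, 1465 CPM in the DN2/DN3 gate and 1485 CPM in the progenitor gate. Both genes were lower past 1.5-fold in both innate gates. Among barcodes without Mki67 and Top2a, 13 of the 38 were lower in the DN2/DN3 gate (all rows, 18.2%).

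Of 19 measured genes of RNA polymerase I and its factors, which make ribosomal RNA, 9 were lower in the NK/ILC1 gate and 10 in the ILC2 gate over the progenitor gate, and 0 in the DN2/DN3 gate. Of 78 mitochondrial ribosomal protein genes, 15 were lower and 1 higher in the NK/ILC1 gate, 26 lower and 2 higher in the ILC2 gate, and 0 lower and 2 higher in the DN2/DN3 gate. Within suffix 2 the lower ones were 33 and 29 of 78 in the NK/ILC1 and ILC2 gates (all rows, 30.5% and 30.4%), and within suffix 1 they were 10 and 16 of 77 (all rows, 35.3% and 24%). Of 37 genes listed as or with translation factors, 8 were lower in the NK/ILC1 gate, 6 in the ILC2 gate and 0 in the DN2/DN3 gate. Eef1a1, the factor that brings aminoacyl-tRNA to the ribosome, had 6141 CPM in the NK/ILC1 gate, 7057 CPM in the ILC2 gate, 6983 CPM in the DN2/DN3 gate and 7559 CPM in the progenitor gate. Tpt1, whose mRNA carries the same kind of tract as the members, had 7494 CPM in the NK/ILC1 gate, 9458 CPM in the ILC2 gate, 5994 CPM in the DN2/DN3 gate and 5166 CPM in the progenitor gate. Tpt1 was the 1 gene of this list higher past 1.5-fold in the ILC2 gate (log2 ratio 0.87). Of 22 mTOR and Myc genes, 8 were lower in the NK/ILC1 gate, 5 in the ILC2 gate and 4 in the DN2/DN3 gate, and 0 were higher. In the NK/ILC1 gate 4 were lower within suffix 2 and 9 within suffix 1. Over all rows the shares lower in the pooled comparisons were the 32.5%, 28.6% and 13.6% given for the assembly factors.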

How the data were processed

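UMI counts per gene and barcode were deposited by the authors as 1 table of whole numbers that holds both libraries. Per the labels' protocols the libraries used 10x 3′ v3 chemistry. The submitters' processing notes name Cell Ranger 3.0.2, STAR and GRCm38. Of the columns, 0 are tied to a library by a label.

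A barcode was kept with at least 500 genes and at most 10% mitochondrial UMIs, which took out 507 barcodes with suffix 2 and 35 with suffix 1. Doublets were called by Scrublet (scanpy 1.11.5) on each suffix apart and taken out, 90 in suffix 2 (2.67%) and 9 in suffix 1 (0.419%), so that doublets may remain. UMIs were summed per gate and scaled to CPM. Levels have exact Poisson, shares Clopper-Pearson and ratios conditional exact intervals of 95%. Where only 1 of the groups had no count, its floor was 3 counts. The interval functions were tested on simulated data. Coding lengths, the longest per gene, came from GENCODE vM21.

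Members and lists were chosen with earlier results of these data known. Named genes are the 10 most abundant members, the 4 highest and 4 lowest per comparison of at least 50 CPM, paralogue pairs, and the 2 most abundant genes of each list. Rps6, Rplp2, the members with short coding sequences and the marker genes named were chosen after their values were seen. Some genes that this rule names are not reported here. Alternatives covered gates, filters, doublets, thinning, scaling and the fold. Values were computed in Python 3.11.15 with numpy 2.4.6 and scipy 1.17.1.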

Additional observations from a re-analysis of the deposited data

Results flagged for a closer look

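The ribosomal protein share differed between the NK/ILC1 and ILC2 gates in opposite directions in the 2 suffixes, by -5.81 percentage points in suffix 2 and 3.19 percentage points in suffix 1. The share in suffix 2 minus that in suffix 1 likewise was -2.94 percentage points in the NK/ILC1 gate, but 6.06 in the ILC2 gate, 1.60 in the DN2/DN3 gate and 3.38 in the progenitor gate. There are no replicates, and these differences between suffixes were not tested.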

How the results depend on the processing

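No paired analysis was possible because no sample column or replicate number ties barcodes to a library. Of 15 alternatives, the one without Krt8 barcodes was chosen after seeing the data. The progenitor gate had the highest share under all that gave one. The NK/ILC1 gate had the lowest, except as a mean over barcodes. Shares follow in the order NK/ILC1, ILC2, DN2/DN3, progenitor, suffix 2, suffix 1, where all differ from those reported by more than their counting interval: 29.1, 32.2, 29.0, 33.2, 32.2 and 29.5% as a mean over barcodes, 29.2, 32.6, 29.96, 33.1, 32.5 and 29.5% in thinned barcodes, 29.5, 32.5, 30.5, 33.7, 33.2 and 30.1% of UMIs outside mitochondrial genes, 28.4, 31.2, 29.4, 32.5, 32.0 and 29.0% for the common ribosome only, 30.5, 34.9, 31.7, 35.8, 34.2 and 32.0% without cycling barcodes, and 28.2, 31.3, 29.4, 32.9, 32.2 and 28.7% without thymic epithelium marker barcodes. With 2 UMIs of each gate gene the 4 gates were at 29.2, 30.9, 29.4 and 32.6%, and with barcodes in more than 1 gate kept at 29.4, 30.5, 30.3 and 32.1%. With at least 1000 genes and at most 5% mitochondrial UMIs, DN2/DN3 was at 29.7%, progenitor at 32.7%, suffix 2 at 32.2% and suffix 1 at 29.2%. With doublets kept suffix 2 was at 32.2%. Without Krt8 barcodes NK/ILC1 was at 28.1%, ILC2 at 31.4%, progenitor at 32.8% and suffix 1 at 28.9%.

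Counts of members called moved by over 1.5 times as follows. Shares of all rows past the same fold were not computed at these settings, so that the counts have no measure beside them. Counts relative to the ribosomal protein total take members past the fold in any of the 5 comparisons. Their count in the main setting is not reported here. At 2-fold, 1 was called in each of the ILC2 and NK/ILC1 gates over the progenitor gate, 1 in NK/ILC1 over ILC2, 1 relative to the ribosomal protein total and 0 between suffixes. At a minimum of 100 CPM, 1 was called in NK/ILC1 over ILC2, 1 between suffixes and 3 relative to the total. In the DN2/DN3 gate 1 was called with 2 UMIs of each gate gene, as a mean over barcodes, in thinned barcodes and without thymic epithelium marker barcodes, and 3 without cycling barcodes. In the NK/ILC1 gate over the progenitor gate 1 was called with barcodes in more than 1 gate kept, 6 without cycling barcodes and 7 scaled outside ribosomal protein and mitochondrial genes. In NK/ILC1 over ILC2, 4 were called in thinned barcodes. Between suffixes 5 were called without cycling barcodes and 5 when scaled outside those genes, and relative to the total 9 without cycling barcodes.

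Of the related lists, without cycling barcodes 5 mitochondrial ribosomal protein, 4 mTOR and Myc, 4 polymerase I and 5 translation factor genes were lower in NK/ILC1, 6 polymerase I genes in ILC2, and 4 mitochondrial, 13 assembly and 4 polymerase I genes in DN2/DN3. With barcodes in more than 1 gate kept, 3 mitochondrial and 3 translation genes were lower in NK/ILC1 and 2 mTOR and Myc genes in DN2/DN3. In thinned barcodes 7 mitochondrial genes were lower in NK/ILC1, and 1 mitochondrial and 1 assembly gene in DN2/DN3. As a mean over barcodes 2 assembly genes were lower in DN2/DN3, and without thymic epithelium marker barcodes 5 translation genes in NK/ILC1. Of all rows, 33.5%, 30.9% and 18.2% were lower in the NK/ILC1, ILC2 and DN2/DN3 gates without cycling barcodes. At the other settings this share was not computed. The cause was not tested. Of 520 values of named members, 482 kept direction and side of the call, 21 passed it, 5 lost it, 12 uncalled ones changed sign and 0 called ones did. The 482 include values that could not change. Settings that altered only the minimum level of a row or the fold left every ratio as it was. The settings for the gates could not alter ratios between suffixes. The 482 are thus no measure of how stable the values were. With 1 library a stage there is no replicate to leave out.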
